A study of Saccharomyces cerevisiae with 6 samples.

Results

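Septins are GTP-binding proteins that assemble into rods and filaments, and in budding yeast they form a collar at the neck between mother cell and bud. The collar serves as the platform on which the contractile actomyosin ring is built, and the ring closes while the primary septum of chitin is laid down behind it. Transcripts of 10 genes of this machinery were examined, chosen by name from the 7125 genes of the deposited table. The choice was made with earlier results of these data known, so the shares over all genes given below are a description and not a test. They were the 5 septins of vegetative cells (CDC3, CDC10, CDC11, CDC12 and SHS1), the septin-myosin linker BNI5, and the ring and ingression genes MYO1, IQG1, HOF1 and CYK3. All 10 were found in the table, and all 10 passed the filter on low counts.

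The libraries came from Saccharomyces cerevisiae of the S288C background, 3 from a strain labelled as a Kap114 knockout and 3 from a wild-type strain, and both strains grew in rich YPD medium to which 1.5 M NaCl had been added. Kap114 belongs to the karyopherins, receptors that carry proteins such as the TATA-binding protein into the nucleus. The library names of both strains carry the word TAF1, with no meaning for it in the sources used here, and no salt-free culture was analysed here, so a response to salt was not measured. Whether libraries of the same genotype stem from separate cultures is not said in the labels, so the p-values reflect the spread between these libraries alone, and that spread may be technical.

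Library totals lay between 34685666 and 38540115 counts in the knockout and between 33638728 and 37893192 counts in the wild type. KAP114 itself had 0 counts in each knockout library and 257, 336 and 312 counts in wild-type libraries 1 to 3. Knockout library 1 differed from the remaining knockout libraries. On the first principal component of log2 CPM, which held most of the variance, it lay at -12.01, between knockout libraries 2 and 3 (-53.0 and -42.4) and the wild-type libraries (29.5 to 43.0). The ribosomal RNA precursor locus RDN37 took 9.05% to 12.3% of counts in the knockout and 3.69% to 4.54% in the wild type. Its part in the results below was not tested.

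The septin genes belong to one family, so it matters whether their reads can be told apart. Each septin gene other than CDC11 has, in its coding sequence, an in-frame match to the codons of the P-loop, the nucleotide-binding stretch of many GTPases and ATPases. The match was searched as a GGN codon, 4 free codons, a second GGN codon, AAA or AAG, and a codon for serine or threonine; 285 of 6002 protein-coding genes (4.75%) hold one. The 24 bases are shown to let the divergence between the family members be seen, with the fixed codons in capitals, read 5′ to 3′ on the coding strand of build R64 (RefSeq sequence). They lie at chrIII:118211-118234 (CDC10, minus strand), chrXII:763739-763762 (CDC3, minus strand), chrVIII:327893-327916 (CDC12, minus strand) and chrIV:52532-52555 (SHS1, plus strand), and the match in the myosin gene MYO1 lies at chrVIII:152203-152226 (plus strand).
CDC10: GGCcaatccggattgGGTAAAAGT
CDC3: GGCcctgatggtattGGTAAGACA
CDC12: GGTgagagcggattgGGTAAAACT
SHS1: GGGccagcaggtacaGGAAAGACC
MYO1: GGTgaatccggtgcgGGCAAGACA
Even over this conserved stretch, CDC10 and CDC12 shared 18 of 24 bases and CDC12 and SHS1 shared 10. MYO1, not a septin gene, shared 15 with each of CDC10, CDC12 and SHS1 and 13 with CDC3. Part of every such likeness is set by the fixed codons of the search. The longest run of identical bases between any pair of the 5 septin coding sequences was 15, between CDC3 and CDC12. None of the 50-base windows of any of the 10 coding sequences occurred elsewhere in the genome (0 windows for each gene), and none of the 10 genes overlapped another gene of the table (0 for each). The counts of these genes are therefore not divided among near-identical copies at that window length.

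In the knockout 9 of the 10 genes rose and 0 fell. At a Benjamini-Hochberg adjusted p of 0.05, edgeR's quasi-likelihood test called 64.3% of all 6080 tested genes, 34.3% higher and 30% lower. The groups did not overlap in CPM for any of the 10, with the knockout higher, as for 37.9% of tested genes. The median log2 fold change of the 10 genes was 1.31, beside a median of 0.01 and a middle 50% of -0.51 to 0.69 over all tested genes. For 7 of the 10 the increase was 2-fold or more, against 17.1% of tested genes that passed the test and rose that far. The fold changes spread widely: CDC10 rose 3.98-fold, CYK3 2.95-fold, CDC3 2.77-fold and CDC12 2.72-fold, whereas CDC11 rose 1.37-fold and BNI5 did not pass. Without knockout library 1 all 10 were called higher, and 8 were called higher without any 1 of the other 5 libraries.

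**Figure D1:**
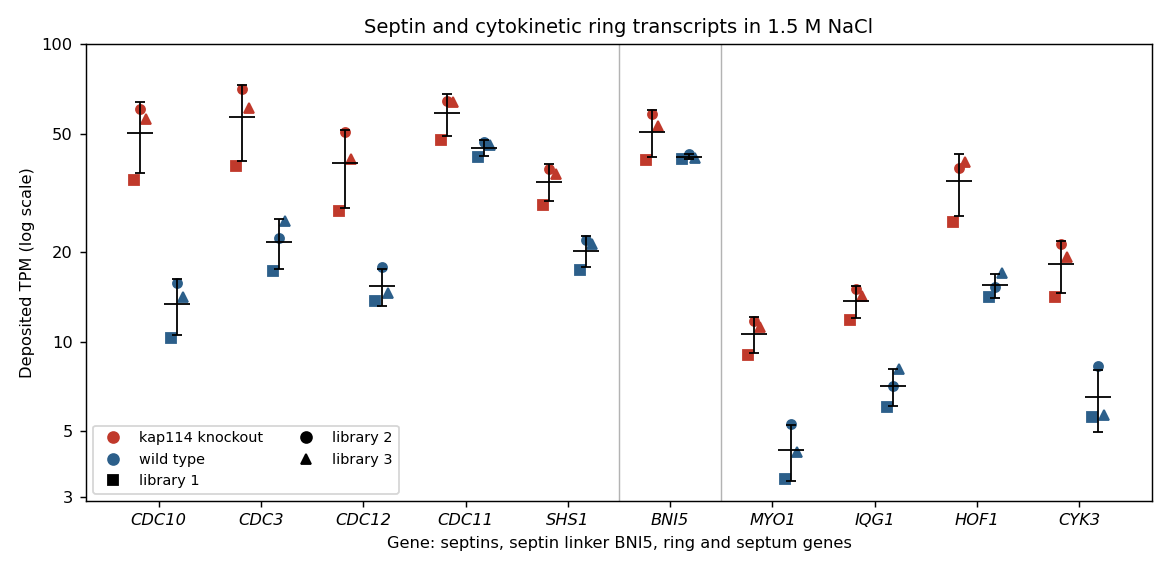
Deposited TPM (log axis) of the 10 genes in each library, with the 3 kap114 knockout libraries in red left of the 3 wild-type libraries in blue; symbols mark the library number, horizontal bars the mean and error bars the SD. Red points lie above all blue points for 9 genes, and those of BNI5 overlap, with 40.7 TPM in knockout library 1.

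The gene of the innermost subunit had the largest fold change of the 10. Septin rods are built from pairs of subunits, with Cdc10 at the centre, then Cdc3, then Cdc12, and Cdc11 or its alternative Shs1 at the ends. CDC10 (YCR002C, chromosome III, 117380 to 118348, minus strand, build R64) had 34.8, 60.4 and 56.0 TPM in knockout libraries 1 to 3 and 10.3, 15.8 and 14.1 TPM in wild-type libraries 1 to 3. The lowest knockout value was 2.21 times the highest wild-type value, the widest gap among the 10 genes. The log2 fold change was 1.99 ± 0.24 (SE; edgeR adjusted p = 0.00114), and 3.39% of tested genes had a larger one. Its raw counts were 1207 to 2119 in the knockout and 369 to 612 in the wild type.

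CDC3 (YLR314C, chromosome XII, 762575 to 764137, minus strand) had 38.9, 70.5 and 60.8 TPM in the knockout libraries and 17.2, 22.2 and 25.4 TPM in the wild-type libraries. CDC12 (YHR107C, chromosome VIII, 326813 to 328036, minus strand) had 27.5, 50.6 and 40.9 TPM in the knockout libraries and 13.7, 17.8 and 14.6 TPM in the wild-type libraries. For both genes the groups did not overlap, and knockout library 1 was the lowest of its group. Their log2 fold changes were 1.47 ± 0.24 for CDC3 and 1.44 ± 0.23 for CDC12 (SE; edgeR adjusted p = 0.00201 and 0.00186).

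The genes for the end subunits had smaller fold changes. CDC11 (YJR076C, chromosome X, 575354 to 576601, minus strand) had 47.4, 64.4 and 63.7 TPM in the knockout libraries and 41.8, 46.9 and 45.8 TPM in the wild-type libraries. Knockout library 1 lay just above the highest wild-type library, at 1.01 times its value. The log2 fold change was 0.46 ± 0.14 (SE; edgeR adjusted p = 0.0211). Leaving out any of the 5 libraries besides knockout library 1 ended that call (adjusted p from 0.0537 to 0.0832), as did scaling by library totals (0.0854), where the CDC11 log2 fold change was 0.31 and the median of all tested genes shifted to -0.13. SHS1 (YDL225W, chromosome IV, 52445 to 54100, plus strand) had 28.9, 37.9 and 36.6 TPM in the knockout libraries and 17.5, 21.9 and 21.3 TPM in the wild-type libraries. Its groups did not overlap, and its log2 fold change was 0.84 ± 0.14 (SE; edgeR adjusted p = 0.00214).

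**Figure D2:**
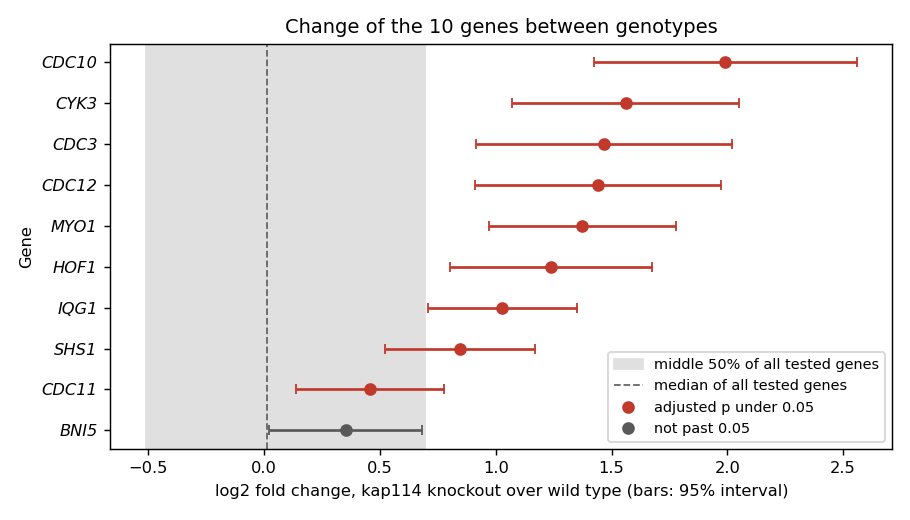
The log2 fold change of each gene, kap114 knockout over wild type, from edgeR's quasi-likelihood fit of 3 libraries against 3, with 95% intervals; red marks an adjusted p under 0.05. CDC10 stands highest at 1.99, CDC11 (0.46) and BNI5 (0.35) lie within the grey band of the middle 50% of all tested genes, and the interval of BNI5 runs from 0.02 to 0.68.

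The balance among the transcripts of the 4 core septins is described next. CDC11 made up 31.9%, 26.2% and 28.8% of the summed TPM of CDC3, CDC10, CDC11 and CDC12 in the knockout libraries and 50.3%, 45.7% and 45.8% in the wild-type libraries. CDC10 made up 23.4%, 24.6% and 25.3% in the knockout libraries and 12.4%, 15.3% and 14.1% in the wild-type libraries. The highest of the 4 septin levels was 1.72, 1.39 and 1.56 times the lowest in the knockout libraries and 4.07, 2.98 and 3.25 times the lowest in the wild-type libraries. These shares and spreads were chosen after the values were seen and are given without a test. Knockout library 1, though nearer to the wild type in level, lay with the other knockout libraries in balance.

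**Figure D3:**
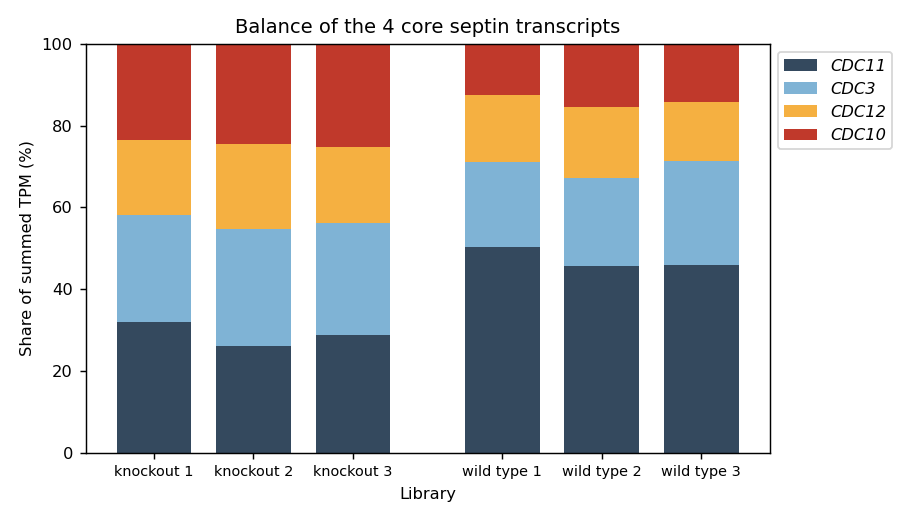
Share of the summed deposited TPM of the 4 core septins taken by each, per library, with the kap114 knockout libraries left of the wild-type libraries. The share of CDC11 is 26.2% to 31.9% in the knockout and 45.7% to 50.3% in the wild type.

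Ratios between members within a library do not depend on the scaling between libraries, and 8 were compared with exact two-sided permutation tests. With 3 libraries against 3 these tests cannot give a p below 0.1. The 4 ratios that reached 0.1 had a p of 0.2 adjusted over the 8. The TPM ratio of SHS1 to CDC11, the alternative end subunits, was 0.591 ± 0.017 in the knockout and 0.450 ± 0.028 in the wild type (SD, n = 3 each), without overlap (exact p = 0.1). The ratio of CDC10 to CDC3 was 0.891 ± 0.033 in the knockout and 0.620 ± 0.080 in the wild type, also without overlap (exact p = 0.1). The ratio of CDC12 to CDC3 overlapped, at 0.700 ± 0.023 in the knockout and 0.724 ± 0.129 in the wild type (exact permutation p = 1), and the sign of its difference turned when wild-type library 1 or 2 was left out.

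Bni5 binds septins and holds the myosin Myo1 at the bud neck before cytokinesis. BNI5 (YNL166C, chromosome XIV, 322219 to 323565, minus strand) had 40.7, 58.3 and 53.2 TPM in the knockout libraries and 41.2, 42.8 and 41.5 TPM in the wild-type libraries. Knockout library 1 lay below the wild-type libraries in TPM, while the other knockout libraries lay above them; in CPM scaled with TMM factors the groups did not overlap. The log2 fold change was 0.35 ± 0.14 (SE; edgeR adjusted p = 0.0615), and without knockout library 1 it was 0.50 with an adjusted p of 0.000372. Set against the summed TPM of the 4 core septins, BNI5 stood at 0.2502 ± 0.0203 in the knockout and 0.442 ± 0.046 in the wild type (SD, n = 3 each), without overlap (exact permutation p = 0.1).

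The 4 ring and ingression genes rose by 1.03 to 1.56 on the log2 scale. MYO1 (YHR023W, chromosome VIII, 151666 to 157452, plus strand), which encodes the type II myosin heavy chain of the ring, had 8.99, 11.8 and 11.2 TPM in the knockout libraries and 3.45, 5.29 and 4.24 TPM in the wild-type libraries. The groups were separated by a factor of 1.70 between the lowest knockout and the highest wild-type library, and the log2 fold change was 1.37 ± 0.17 (SE; edgeR adjusted p = 0.00114). IQG1 (YPL242C, chromosome XVI, 90622 to 95109, minus strand), for the IQGAP protein that recruits actin to the ring, had 11.8, 15.03 and 14.3 TPM in the knockout libraries and 6.05, 7.09 and 8.07 TPM in the wild-type libraries. Its groups did not overlap and its log2 fold change was 1.03 ± 0.14 (SE, adjusted p = 0.00116 in edgeR's test). The TPM ratio of IQG1 to MYO1 was 1.32, 1.28 and 1.28 in the knockout libraries and 1.76, 1.34 and 1.90 in the wild-type libraries, without overlap by a narrow margin (exact permutation p = 0.1).

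Hof1, an F-BAR protein, moves from the septin collar to the ring, and Cyk3 promotes synthesis of the primary septum. HOF1 (YMR032W, chromosome XIII, 335298 to 337307, plus strand) had 25.2, 38.4 and 40.3 TPM in the knockout libraries and 14.1, 15.3 and 17.0 TPM in the wild-type libraries. CYK3 (YDL117W, chromosome IV, 248581 to 251238, plus strand) had 14.1, 21.2 and 19.2 TPM in the knockout libraries and 5.57, 8.25 and 5.67 TPM in the wild-type libraries. Neither gene's groups overlapped, and the log2 fold changes were 1.24 ± 0.19 for HOF1 and 1.56 ± 0.21 for CYK3 (SE; edgeR adjusted p = 0.00160 and 0.00116). The ratios of HOF1 to CYK3 (1.89 ± 0.17 in the knockout and 2.46 ± 0.575 in the wild type) and of MYO1 to the 4 septins (0.0529 ± 0.0067 in the knockout and 0.0452 ± 0.0055 in the wild type) overlapped between the groups (SD, n = 3 each; exact permutation p = 0.2 and 0.3).

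Per length, MYO1, IQG1 and CYK3 had lower mean levels than all 5 septins in both genotypes, while HOF1 lay among the septins. In the knockout the mean order was CDC11 (58.5 TPM), CDC3, BNI5, CDC10, CDC12, HOF1, SHS1, CYK3, IQG1 and MYO1 (10.6 TPM). Among neighbours in that order, library values did not overlap only between SHS1 and CYK3 and between IQG1 and MYO1. In the wild type the order was CDC11 (44.8 TPM), BNI5, CDC3, SHS1, HOF1, CDC12, CDC10, IQG1, CYK3 and MYO1 (4.33 TPM). There, library values did not overlap between BNI5 and CDC3, SHS1 and HOF1, CDC10 and IQG1, and CYK3 and MYO1. CDC10 lay above SHS1 in each of the 3 knockout libraries and below it in each of the 3 wild-type libraries.

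The authors' deposited table of the same comparison, whose test is not stated, gave close values. It listed a log2 fold change of 1.99 for CDC10, 1.37 for MYO1, 0.46 for CDC11 and 0.35 for BNI5, and a false discovery rate of 0.0140 for CDC11 and 0.0752 for BNI5. The authors' deposited table of selected genes, 2212 in number, lists CDC3, CDC10, CDC12, SHS1 and HOF1 and not the other 5 members. Absence from it does not mean a weak change. In the authors' comparison MYO1, IQG1 and CYK3 rose 2.59-fold, 2.04-fold and 2.95-fold. Their false discovery rates there were 2.07e-14, 3.07e-07 and 3.88e-13.

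The surroundings of the genes were compared next. For 5 members a tested neighbour is transcribed in the opposite direction from a shared upstream region. Of these neighbours, NKP2 (beside CDC3), MRPL32 (CDC10), GGA2 (CDC12) and GCS1 (SHS1) rose, by 1.02, 1.13, 1.53 and 0.98 on the log2 scale, and YNL165W (BNI5) fell by 1.09. Over all such pairs in the genome with both genes tested and at most 1000 bases apart, 46.9% of the genes that rose had a partner that rose. MIR1, upstream of CDC11 on the same strand and for the mitochondrial phosphate carrier, fell by 0.53, a call that ended without knockout library 3 or wild-type library 1 or 3 (edgeR adjusted p from 0.0534 to 0.0638), and CIN2, upstream of IQG1 on the same strand, rose by 1.54. Downstream neighbours went in both directions. SPH1 (beside CDC3), SRP68 (IQG1), YMR030W-A (HOF1), NUP84 (CYK3) and SKO1 (BNI5) rose. Their log2 fold changes were 1.11, 1.63, 1.42, 1.40 and 0.39. TRR2 (CDC12) and WHI4 (SHS1) fell, with log2 fold changes of -0.71 and -0.49. HOC1 (CDC11) and MAS2 (MYO1) did not pass (edgeR adjusted p = 0.263 and 0.714).

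Many genes of late mitosis are controlled by the forkhead factors Fkh1 and Fkh2, whose sites hold the letters GTAAACA. In the 500 bases before the start codon, on either strand, these 7 letters were present for CDC10, MYO1, IQG1 and HOF1, which is 4 of the 10 genes, and for 10.3% of 6000 upstream regions of the same length. The 30 bases around each match are shown because CDC10 is the only septin gene with the letters and shares them with 3 of the 4 ring genes; capitals mark the match, and each is read 5′ to 3′ on the gene's strand of build R64 (RefSeq sequence). They lie at chrIII:118627-118656 and chrIII:118428-118457 (CDC10, minus strand), chrVIII:151484-151513 (MYO1, plus strand), chrXVI:95260-95289 (IQG1, minus strand) and chrXIII:335087-335116 (HOF1, plus strand).
CDC10, first match: gaaatgctaatTGTTTACcaaaaatcaaag
CDC10, second match: atagaatatatGTAAACAtgtatcagtaat
MYO1: agggtaattgcGTAAACAtttgtaatttct
IQG1: aagaggaaagtGTAAACAttacaaattctt
HOF1: ttgggcaagttGTAAACAataaatggtaaa
The match begins 297 and 98 bases before the start codon of CDC10, 171 before that of MYO1, 169 before that of IQG1 and 200 before that of HOF1. The window has a fixed length and can run into a neighbouring gene. Only 271 bases separate CDC10 from MRPL32, so the first CDC10 match lies inside MRPL32. Genes called higher made up 42.2% of the 597 tested genes with the letters and 34.6% of the 5149 tested genes without them. The letters of the G1 factors SBF (CGCGAAA) and MBF (ACGCGT) were each found before 1 member, IQG1 and BNI5, and before 5.82% and 5.42% of all upstream regions. The SBF match begins 280 bases before the start codon of IQG1 and lies inside CIN2, which is 262 bases away. Those of the stress factors Msn2 and Msn4 (AGGGG) were found before 4 members and before 34.1% of all regions. CDC3, CDC11, CDC12, SHS1 and CYK3 also rose and do not have the forkhead letters in this window.

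The partners of the septins and the ring moved unevenly. For the lists here and below, the shares over all tested genes were 34.3% called higher and 30% called lower. Of 20 tested regulators of septins and of the bud neck, 12 rose and 3 fell, with a median log2 fold change of 0.31. HSL1, for a septin-bound kinase, rose 2.38-fold (1.25 ± 0.13, log2, SE), and its TPM was 19.5 ± 2.37 in the knockout and 8.61 ± 1.16 in the wild type (SD, n = 3 each). GIC2, for an effector of the GTPase Cdc42 in septin recruitment, rose by 1.43 on the log2 scale, and BUD4, for an anillin-like protein of the septin ring, by 1.48. The 3 that fell were NAP1, the most abundant of the list and for a histone chaperone that also takes part in septin assembly (-0.60 ± 0.15, log2, SE), and CDC42 and NIS1, which were named after their values were seen. NAP1 and CDC42 overlap YKR047W and YLR230W on the opposite strand. Without knockout library 3 only CDC42 of the list was called lower, with edgeR adjusted p of 0.0523 for NAP1 and 0.0603 for NIS1. The call of NAP1 also ended without wild-type library 1 (0.0566) and that of NIS1 without wild-type library 2 (0.0504). Transcripts of the septins of sporulation did not follow: SPR28 fell by 1.08 on the log2 scale, to 5.06 ± 0.75 TPM in the knockout against 11.3 ± 1.88 TPM in the wild type, and SPR3 had 1.11 ± 0.04 TPM in the knockout and 1.58 ± 0.28 TPM in the wild type (SD, n = 3 each) and did not pass (edgeR adjusted p = 0.10001).

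A list of 12 genes held those for myosin light chains, actin, its binding proteins and formins, and RHO1, ROM2 and TUS1. Of these 12, 7 rose and 0 fell, with a median log2 fold change of 0.74. ACT1, for actin, rose to 928 ± 235 TPM in the knockout, against 315 ± 32.5 TPM in the wild type (SD, n = 3 each; log2 fold change 1.63 ± 0.24, SE). TPM2, for a tropomyosin, rose by 1.30, COF1, for cofilin, by 0.999 and PFY1, for profilin, by 0.94 on the log2 scale. MLC1, for a light chain of Myo1 and Iqg1, rose by 1.15 on the log2 scale and stood at 26.5 ± 3.12 times the TPM of MYO1 in the knockout and 31.96 ± 5.48 times in the wild type (SD, n = 3 each; exact permutation p = 0.3). RHO1, ROM2 and TUS1 did not pass (edgeR adjusted p = 0.298, 0.468 and 0.237), and neither did the formin genes. BNI1 had a log2 fold change of 0.00 ± 0.11 (SE, edgeR adjusted p = 0.999). BNR1 had 11.5, 4.37 and 4.77 TPM in the knockout libraries and 12.2, 12.4 and 13.2 TPM in the wild-type libraries, and its log2 fold change was -0.81 ± 0.35 (SE; edgeR adjusted p = 0.0745). Both formins, RHO1, ROM2 and TUS1 were picked out with their values known. BNR1 was called lower in 7 of 17 alternatives, among them DESeq2 (adjusted p = 0.0274), limma-voom (0.0331) and the fit without knockout library 1 (2.05e-06).

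Of 10 genes for the primary septum, chitin and glucan, 5 rose and 1 fell, with a median log2 fold change of 0.23. CHS2, for the chitin synthase that builds the primary septum, rose to 20.8 ± 5.67 TPM in the knockout, against 7.24 ± 0.97 TPM in the wild type (SD, n = 3 each; 1.60 ± 0.21, log2, SE). FKS1, for a glucan synthase, rose by 1.42 and CHS6, which takes part in the transport of chitin synthase III, by 1.15 on the log2 scale. GSC2, for the alternative glucan synthase and the most abundant gene of the list over the 6 libraries, fell by 0.96; its edgeR adjusted p was 0.0685 without knockout library 3 and 0.0523 without wild-type library 1. INN1, whose product works with Cyk3 and Hof1 at the septum and which was named after its values were seen, had 34.97 ± 2.56 TPM in the knockout and 33.4 ± 0.71 TPM in the wild type (SD, n = 3 each), with an edgeR adjusted p of 0.234.

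**Figure D4:**
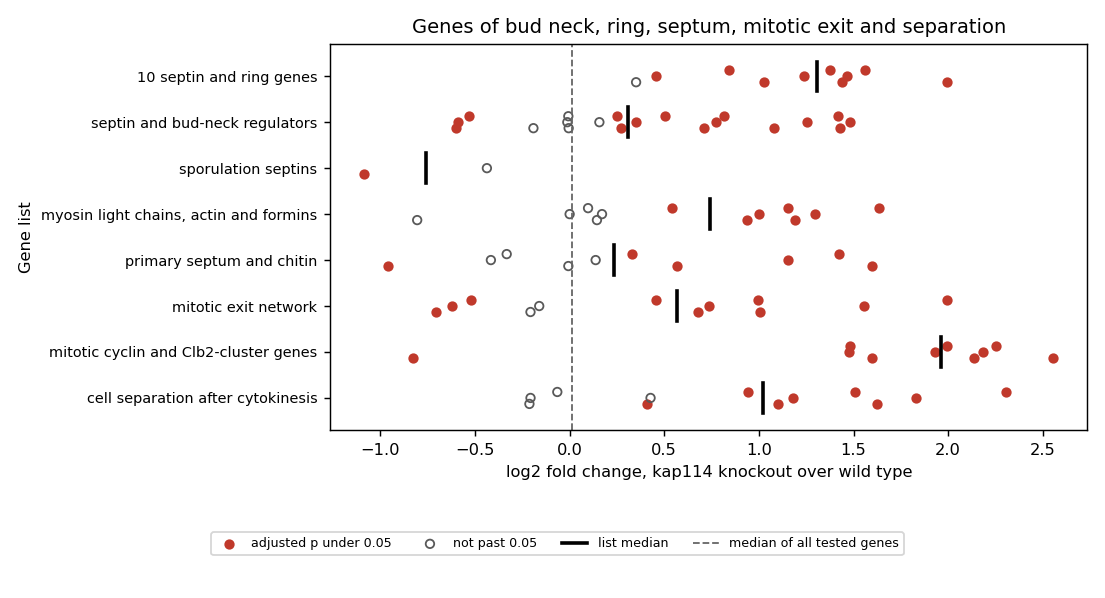
The log2 fold change (kap114 knockout over wild type) of each tested gene of the 10 septin and ring genes and of 7 related lists; filled red points passed an adjusted p of 0.05, black bars mark list medians and the dashed line the median of all tested genes. CDC5, BUD4 and CHS2 appear on 2 lists each. The medians run from -0.76 for the 2 sporulation septins to 1.96 for the mitotic cyclin list.

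Genes that act in time with cytokinesis were set beside the members. Of 10 mitotic cyclin and Clb2-cluster genes, 9 rose and 1 fell, with a median log2 fold change of 1.96. CLB1, for a mitotic cyclin, rose by 2.25, SWI5, for a transcription factor of mitotic exit, by 2.18 and ALK1, for a haspin-like kinase, by 1.93 on the log2 scale. CDC20, for an activator of the anaphase-promoting complex and the most abundant of the list over the 6 libraries, fell by 0.83. Of 12 genes of the mitotic exit network, the cascade that triggers ring contraction, 7 rose and 3 fell. Their median log2 fold change was 0.57, and of all tested genes 34.3% rose and 30% fell. CDC5, for the polo kinase, rose by 2.00, TEM1, for the GTPase at the head of the cascade, by 1.56, BFA1, for a part of its inhibitor, by 0.995 and MOB1, for the partner of the kinase Dbf2, by 0.46. The call of MOB1 ended without knockout library 3 (edgeR adjusted p = 0.0596), without wild-type library 1 (0.0608) and with scaling by library totals (0.0634). NUD1, DBF20 and BUB2 fell, and were singled out with their values known. The call of DBF20 ended without any single library except knockout library 1 (edgeR adjusted p from 0.0575 to 0.0919). Of 12 genes of cell separation, the step after cytokinesis, 8 rose and 0 fell, with a median log2 fold change of 1.02. CTS1, for the chitinase that cleaves the septum, rose by 1.18 ± 0.21 (log2, SE). DSE2 (1.83 ± 0.18), EGT2 (1.62 ± 0.14) and DSE4 (1.51 ± 0.11), which encode cell wall proteins of separating daughter cells, rose as well. CTS1 overlaps YLR286W-A on the opposite strand.

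Genes that mark some of the other states of a culture moved with genotype as well. All 5 stationary-phase genes (SNZ1, SNO1, SPG1, SPG4 and SPG5) fell, and their summed TPM was 15645, 2953 and 5486 in the knockout libraries and 32321, 29307 and 33057 in the wild-type libraries. Of 5 S-phase genes 4 rose and CLB5 did not pass (edgeR adjusted p = 0.972), and their summed TPM was 79.0, 149 and 122 in the knockout libraries and 38.6, 47.9 and 43.6 in the wild-type libraries. The most abundant gene of each list weighed heavily in its sum. SPG4 had 10263, 2057 and 3877 TPM in the knockout libraries and 20615, 18999 and 21023 in the wild-type libraries. RNR1 had 46.4, 88.8 and 69.8 TPM in the knockout libraries and 14.8, 19.2 and 16.3 in the wild-type libraries. Knockout library 1, which had the lowest summed level of the 10 septin and ring genes in its group, also had the highest stationary-phase and the lowest S-phase level. Lists of division did not all rank the knockout libraries in this way. The mitotic cyclin list summed to 244, 344 and 302 TPM in knockout libraries 1 to 3. Cell separation genes summed to 2397, 2234 and 1939 TPM there, highest in library 1, and to 1034, 1244 and 1050 TPM in wild-type libraries 1 to 3. The part of these markers in the change of the members was not tested, and a different share of dividing cells cannot be told apart from a different amount of RNA per cell in these bulk libraries. Of 8 sporulation genes 2 fell, SPR28 among them, and 0 rose, while 30% of all tested genes fell. Their summed TPM was 36.2 to 54.1 in the knockout and 56.0 to 68.1 in the wild type. The 5 genes of MATa haploids summed to 482 to 555.3 TPM in the knockout and 323 to 495 TPM in the wild type, with 4 called higher. The 3 of MATalpha haploids summed to 3.68 to 4.44 TPM in the knockout and 3.47 to 5.29 TPM in the wild type, with 0 called in either direction.

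**Figure D5:**
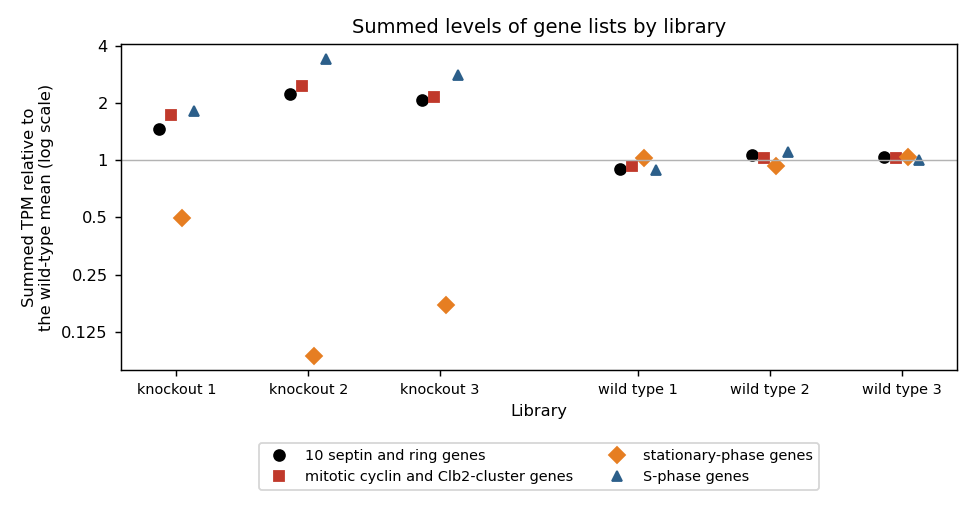
Summed deposited TPM of the 10 septin and ring genes, the mitotic cyclin list, the S-phase genes and the stationary-phase genes in each library, relative to the wild-type mean (log axis), with the kap114 knockout libraries left of the wild-type libraries. The septin and ring genes stand at 1.46, 2.25 and 2.08 times the wild-type mean in knockout libraries 1 to 3, and the stationary-phase genes at 0.496, 0.0936 and 0.174 times.

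The genes whose pattern over the 6 libraries lay nearest to the mean of the 4 core septins, by the root mean square difference of centred log2 CPM, were TCD2 (0.0214), RPL37B (0.0362) and FPR4 (0.0429), among 5179 genes with at least 10 CPM. Those nearest to MYO1 were SCW10 (0.0455), SWI6 (0.0509) and RBD2 (0.0558). RPL37B has a closely similar copy, so its reads may be uncertain, which was not tested here. Such likeness was common: 1456 of the 5179 genes had a Pearson correlation above 0.95 with the septin mean and 1308 with MYO1, over 6 libraries that fall into the 2 genotypes.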

How the data were processed

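Poly(A)-selected RNA was sequenced as stranded libraries, per the labels' protocols. The authors deposited raw read counts for every gene and library together with RPKM and TPM values, per the file headers. Per gene, the authors' deposited comparison gives a score (the signed fold change), the log2 fold change, the p-value and the false discovery rate. FastQC and build R64 are named in the submitters' processing notes. Aligner, counter and the authors' test were not given in the sources used here. In RefSeq, the annotation of R64 matched 6190 of 7125 gene names (86.9%), of which 99.0% had identical coordinates, all 10 members among them.

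Groups came from the sample titles. Counts were tested with edgeR 4.0.16 in R 4.3.3 (filterByExpr with a minimum count of 10 and a minimum total of 15, TMM scaling with factors of 0.947 to 0.958 in the knockout and 1.02 to 1.07 in the wild type, robust quasi-likelihood fit), with Benjamini-Hochberg adjustment over 6080 genes and a threshold of 0.05. Log2 CPM used a prior count of 2. The SE was computed from the F statistic. The floor, 3 counts per library, equals 0.0778 to 0.0892 CPM and covers counting error only; the members had 369 to 3908 counts. Tested on simulated data for this comparison with 200 of 6080 genes changed, the fit recovered 93.0% of changes of 1 on the log2 scale and 100% of those of 2, with 14 false among 207 calls. The simulation gave all genes the same dispersion and held no outlying library. Its rates therefore need not hold for the real libraries, where 64.3% of tested genes were called.

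The members and gene lists were chosen with earlier results of these data known, and lists were described by counts and medians, without a set test. Named were all members and, from each list, up to 3 called genes with the smallest p and the gene with the highest mean TPM; exceptions are stated. AIM44 and GPS1, both listed among the bud-neck regulators, are names of 1 gene. As alternatives, each library was left out, the replicate number was added as a block, and scaling used RLE, upper quartiles, totals or TMM without the 10 most abundant genes. DESeq2 1.42.0, limma-voom (limma 3.58.1) and limma on log2 TPM with a pseudocount of 1 or 0.1 replaced edgeR, and the filter was dropped or set to 10 CPM in 3 libraries. For ratios they were counts and RPKM in place of TPM.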

Additional observations from a re-analysis of the deposited data

How the results depend on the processing

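Of the 17 alternatives to the count test, none turned the direction of any of the 10 members; 8 to 10 were called higher and 0 lower, with a median log2 fold change from 1.11 to 1.46. Apart from CDC11 and BNI5, every member kept its call throughout. CDC11 lost it with limma on log2(TPM + 1) and log2(TPM + 0.1) (adjusted p = 0.0511 and 0.0513), besides the settings given above; the cause was not tested. Over the whole table, leaving out 1 library moved the number of lower genes between 1090 (without knockout library 3) and 2261, with 1211 without wild-type library 1, and that of higher genes between 1729 and 2378. Among the lists, the counts of lower genes moved most. With scaling by library totals they were 2 for sporulation septins, 1 for actin and formins, 2 for the septum, 5 for mitotic exit and 2 for cell separation. With DESeq2 they were 1, 2 and 1 for actin and formins, the septum and cell separation, as with limma on log2(TPM + 1) and on log2(TPM + 0.1). Limma-voom called 1 lower for actin and formins. SPR3 was the added sporulation septin, and BNR1 the actin and formin gene in each case. Leaving out 1 library gave 1 to 3 lower genes for bud-neck regulators, 0 to 1 for actin and formins, 0 to 3 for the septum (0 without knockout library 3 or wild-type library 1, 3 without knockout library 1) and 0 to 2 for cell separation. The difference of the CDC12 to CDC3 ratio ran from -0.19 to 0.048 on the log2 scale, at 0.042 without wild-type library 1 and 0.048 without wild-type library 2. By Pearson correlation, 0 of the 3 genes nearest to the septin mean and 0 of the 3 nearest to MYO1 were the same.

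The replicate numbers were not taken as pairs: same-numbered libraries had deviations correlated at 0.32, 0.18 and -0.07, and not every library correlated best with its own number. With the number as a replicate block, 9 members, 2059 genes higher and 1857 lower were called, and BNR1 of the actin and formin list was called lower (1 gene). The lowest count of a member in a library was 369.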
